A study of Mus musculus with 2 samples.

Results

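Mir122, Mir375, Mir192, Mir194-1, Mir194-2 and Mir215 are microRNA genes best known from liver, gut and endocrine tissue, and their levels were examined here in the embryonic limb. They were chosen by name, and all 6 were found by their Ensembl identifier among the 1973 microRNA genes of the count tables. The samples were whole limb tissue of mouse embryos of strain B6NCrl at embryonic day 14.5, profiled by sequencing of small RNAs with inserts below 30 nucleotides. The study held 1 group of 2 samples with no treatment named, biological replicates 1 and 2, each described as 4 limbs and as pooled male and female. Each was also labelled as 1 pup, so the number of embryos behind each library is not clear. Both samples carried the same donor label, and they were collected on different days at the same embryonic stage, so replicate and day of collection cannot be told apart. Liver, gut and endocrine tissue were not analysed here, so no level below is set against the organ of origin.

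MicroRNAs are short RNAs cut from hairpin precursors. They guide silencing proteins to messenger RNAs that pair with the seed, bases 2 to 8 of the mature microRNA, so products with the same seed have overlapping targets. Mir122 gives the most abundant microRNA of hepatocytes and acts in lipid metabolism. Mir375 acts in the hormone-secreting cells of the pancreatic islet, where it restrains insulin release, and is also made by other secretory epithelia. Mir192, Mir194-1, Mir194-2 and Mir215 are expressed in intestinal, hepatic and renal epithelium and lie as pairs at separate loci.

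The mature products of these pairs that are compared between the loci are shown, because shared letters decide which reads could be given to 1 gene, together with miR-375-5p. Sequences are from RefSeq (GRCm38.p6), which matched 5 of the 6 genes in the table of microRNA sequences used here, and Mir122 is named only, as is miR-375-3p, the arm for which Mir375 is best known. Capitals mark the seed.
miR-192-5p (Mir192, chr19:6264857-6264877, plus strand): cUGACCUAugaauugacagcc
miR-215-5p (Mir215, chr1:185313610-185313630, plus strand): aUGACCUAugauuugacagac
miR-194-5p (Mir194-1, chr1:185313325-185313346, and Mir194-2, chr19:6264658-6264679, plus strand): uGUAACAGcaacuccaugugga
miR-194-1-3p (Mir194-1, chr1:185313360-185313381, plus strand): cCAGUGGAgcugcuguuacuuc
miR-194-2-3p (Mir194-2, chr19:6264694-6264715, plus strand): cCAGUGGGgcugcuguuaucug
miR-375-5p (Mir375, chr1:74900696-74900717, minus strand): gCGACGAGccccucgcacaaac
The products miR-192-5p and miR-215-5p have the same seed and differ at 3 of 21 positions (C1A, A12U and C20A, counted from the 5′ end with the base of miR-192-5p first). The product miR-194-5p is identical at both of its genes, with 0 differences over 22 bases. The opposite arms differ at 4 of 22 positions (A8G, C19U, U20C and C22G, with the base of miR-194-1-3p first), and the first of these falls in the seed. No other product in the table had the seed of miR-192-5p and miR-215-5p, of miR-194-5p or of miR-375-5p, and whether the reads of Mir375 came from miR-375-5p or miR-375-3p was not measured.

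The precursors of the pair on separate chromosomes show how far the identity reaches. Capitals mark miR-194-5p.
Mir194-1 precursor (chr1:185313319-185313385, plus strand): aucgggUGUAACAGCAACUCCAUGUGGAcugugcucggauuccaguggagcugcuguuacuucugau
Mir194-2 precursor (chr19:6264643-6264728, plus strand): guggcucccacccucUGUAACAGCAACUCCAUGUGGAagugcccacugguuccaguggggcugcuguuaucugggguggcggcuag
The longest stretch in common was 22 bases, the length of the mature product, and the bases on either side of it differ. Reads with several alignments were given to no gene by the authors and made up 31.8% of all reads in replicate 1 and 32.6% in replicate 2. A read of exactly miR-194-5p matches both genes, so the counts of Mir194-1 and Mir194-2 are lower limits. Mir375, Mir192, Mir122 and Mir215 held no stretch of 22 bases in common with any other of the 2201 microRNA precursors of GENCODE M21, whereas Mir194-1 and Mir194-2 shared exactly 1 with each other. The tables give 1 count per gene and do not say which arm a read came from.

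Levels are own-strand counts scaled to a library sum of 1000000 (CPM); the unscaled own-strand sum was 4608816 in replicate 1 and 4144385 in replicate 2. The genes summed to 2480 counts in replicate 1 and 2914 in replicate 2, or 621 ± 117 CPM (SD, n = 2). That is 0.0538% of the microRNA counts in replicate 1 and 0.0703% in replicate 2, about 1 read in 1858 and 1 in 1422. Of the 6 genes, 4 had at least 10 counts in both libraries, against 333 of the 1973 genes as a whole. Their order was the same in both libraries: Mir375, Mir192, Mir194-2, Mir122, Mir215 and Mir194-1. Intervals below are 95% intervals of counting error alone. How well each microRNA is captured in a library was not measured, so comparisons between genes are of reads, not of amounts of RNA. In whole tissue, fewer cells of a type and less RNA per cell cannot be told apart.

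**Figure D1:**
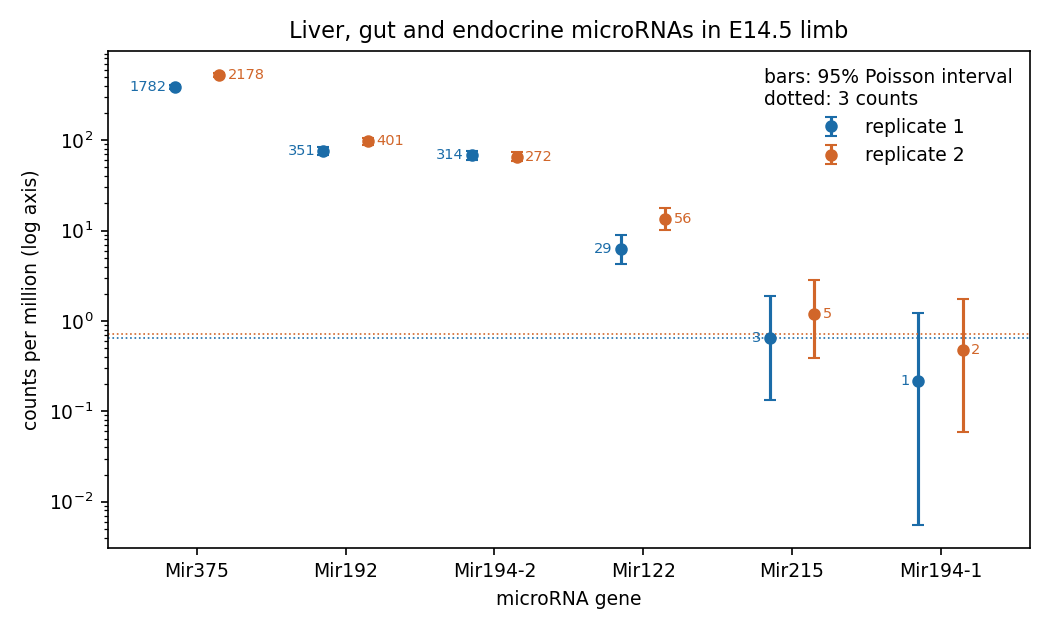
Level of each gene in CPM on a log axis, with replicate 1 left and replicate 2 right, the count written beside each point, and 95% Poisson intervals as bars. Mir375 lies near 456 CPM, Mir192 and Mir194-2 below 100 CPM, and Mir215 and Mir194-1 at or near the dotted lines that mark 3 counts in each library.

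The endocrine microRNA gene Mir375 held most of the counted reads of the group. It had 1782 counts in replicate 1 (387 CPM, interval 369 to 405) and 2178 counts in replicate 2 (526 CPM, interval 504 to 548). Mir375 was thus higher in replicate 2 and the counting intervals did not overlap. Its mean was 456 ± 98.2 CPM (SD, n = 2), and it gave 71.9% of the summed counts in replicate 1 and 74.7% in replicate 2. These shares would be lower if the left-out miR-194-5p reads were counted. Mir375 ranked 124 among all genes, above 209 of the 333 detected genes, so its level was in the middle range of the limb and not at the detection limit. The genes next to it in mean level were Mir27a at 510 ± 5.39 CPM and Mir141, of the epithelial Mir200 family, at 455 ± 34.7 CPM (SD, n = 2 each). In GRCm38 (mm10) coordinates Mir375 (ENSMUSG00000065616) lies on chromosome 1 from 74900658 to 74900721 on the minus strand, between genes. No annotated transcript overlaps it in GENCODE M21, and the nearest protein-coding gene is Cfap65.

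The pair Mir192 and Mir194-2 had the next levels. Mir192 had 351 counts in replicate 1 (76.2 CPM, interval 68.4 to 84.6) and 401 counts in replicate 2 (96.8 CPM, interval 87.5 to 107). Mir194-2 had 314 counts in replicate 1 (68.1 CPM, interval 60.8 to 76.1) and 272 counts in replicate 2 (65.6 CPM, interval 58.1 to 73.9). Mir192 was therefore higher in replicate 2 with intervals that did not overlap, while those of Mir194-2 overlapped. The means were 86.5 ± 14.6 CPM for Mir192 and 66.9 ± 1.77 CPM for Mir194-2 (SD, n = 2 each), at ranks 200 and 214. Neighbours in mean level were Mir29a (90.6 ± 2.92 CPM) and Mir138-2 (84.7 ± 0.0512 CPM) for Mir192, of which Mir138-2 shares 22 bases with Mir138-1 and may be undercounted. For Mir194-2 they were Mir331 (69.2 ± 5.19 CPM) and Mir20b (63.8 ± 14.5 CPM).

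Both genes lie on the plus strand of chromosome 19 between genes. Mir194-2 (ENSMUSG00000065582) runs from 6264643 to 6264728 and Mir192 (ENSMUSG00000065523) from 6264844 to 6264932, a gap of 115 bases, and the nearest protein-coding gene is Atg2a. Such close neighbours can come from a common transcript, and the ratio of the pair was compared for that reason. Mir192 had 1.12 times the counts of Mir194-2 in replicate 1 (interval 0.957 to 1.31) and 1.47 times in replicate 2 (1.26 to 1.73). The interval of replicate 1 included 1 and that of replicate 2 did not, so the order of this pair was not resolved by replicate 1. The ratio was lower in replicate 1, by an odds ratio of 0.758 (two-sided Fisher's exact p = 0.0131 on the reads of these libraries, unadjusted and chosen after the values were seen). The count of Mir194-2 is a lower limit, which bears on this ratio in both libraries.

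The liver microRNA gene Mir122 was close to the lower end of what was detected. It had 29 counts in replicate 1 (6.29 CPM, interval 4.21 to 9.04) and 56 counts in replicate 2 (13.5 CPM, interval 10.2 to 17.5), and these intervals did not overlap. Its mean was 9.90 ± 5.11 CPM (SD, n = 2) at rank 280, above 53 of the 333 detected genes. Its neighbours in mean level were Mir190b (9.94 ± 3.01 CPM) and Mir1930 (9.72 ± 0.245 CPM). Mir122 (ENSMUSG00000065402) lies on chromosome 18 from 65248861 to 65248926 on the plus strand, in an exon of the long noncoding RNA gene AC157910.3. Mir375 had 61.4 times its counts in replicate 1 and 38.9 times in replicate 2. Mir194-2 had 10.8 times its counts in replicate 1 (interval 7.39 to 16.4) and 4.86 times in replicate 2 (3.63 to 6.60), so Mir122 lay below the gene next above it in both libraries.

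The other locus of the family, Mir215 and Mir194-1, was at the limit of detection in reads that align to 1 gene. Mir215 had 3 counts in replicate 1 (0.651 CPM, interval 0.134 to 1.90) and 5 in replicate 2 (1.21 CPM, interval 0.392 to 2.82). Mir194-1 had 1 count in replicate 1 (0.217 CPM, interval 0.00549 to 1.21) and 2 in replicate 2 (0.483 CPM, interval 0.0584 to 1.74). The limit was set at a fixed 3 counts in each library, which is not the end of such an interval. It corresponds to 0.651 CPM in replicate 1 and 0.724 CPM in replicate 2. Only the value of Mir215 in replicate 2 was above that limit. The intervals of Mir215 and Mir194-1 overlapped each other in both libraries, and their order was not resolved. Opposite-strand reads at Mir194-1 numbered 1 in replicate 1 and 2 in replicate 2, as many as on its own strand. Mir194-1 (ENSMUSG00000065581) runs from 185313319 to 185313385 and Mir215 (ENSMUSG00000065562) from 185313581 to 185313692 on the plus strand of chromosome 1, with 195 bases between them. Both lie inside the noncoding antisense gene 2010103J01Rik, Mir194-1 in an intron and Mir215 in an exon, and opposite an intron of Iars2, which encodes the mitochondrial isoleucyl-tRNA synthetase.

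The loci were thus unequal in reads. Mir192 had 117 times the counts of Mir215 in replicate 1 (interval 39.7 to 570) and 80.2 times in replicate 2 (34.1 to 248), and both intervals lay far above 1. These genes have the same seed, but miR-192-5p and miR-215-5p differ at 3 of 21 positions. The longest stretch that the Mir215 precursor had in common with any other listed precursor was 11 bases. The ratio therefore does not rest on full-length reads that match both exactly. Mir194-2 had 314 times the counts of Mir194-1 in replicate 1 (interval 55.9 to 12441) and 136 times in replicate 2 (37.3 to 1129). This second ratio holds only for reads that align to 1 of the genes, and how the left-out miR-194-5p reads divide between them was not measured.

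**Figure D2:**
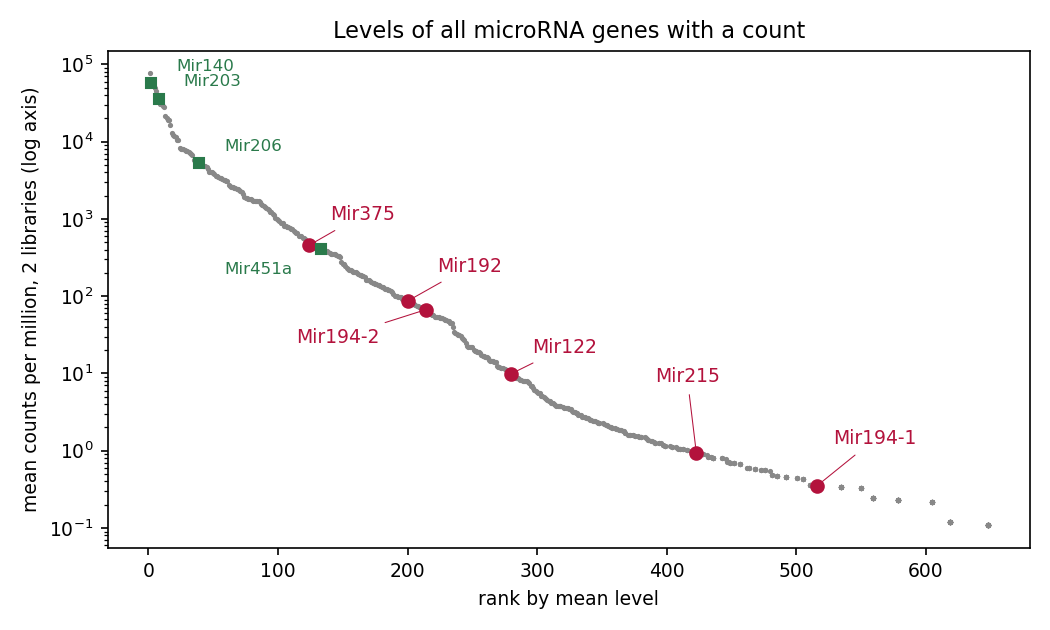
Mean CPM over the 2 libraries, on a log axis, against rank for all microRNA genes with a count; red circles are the liver, gut and endocrine genes and green squares are Mir140 (cartilage), Mir203 (epidermis), Mir206 (skeletal muscle) and Mir451a (red cells). The red genes run from rank 124 for Mir375 to rank 516 for Mir194-1, and Mir375 lies beside Mir451a.

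The levels were set against microRNAs of tissues that a limb does and does not hold. The defining microRNAs of limb tissues were present: Mir140 of cartilage had 144 times the counts of Mir375 in replicate 1 and 112 times in replicate 2. For Mir203 of the epidermis these values were 105 and 60.1 times, and for Mir206 of skeletal muscle 15.6 and 8.39 times. Mir451a, the microRNA of red cells, had 1.19 times the counts of Mir375 in replicate 1 and 0.666 times in replicate 2, so the order of these genes differed between the libraries. The list of white cell genes (Mir223, Mir150 and Mir155) summed to 598 CPM in replicate 1 and 655 CPM in replicate 2. These values are close to the sums of 538 and 703 CPM of the liver, gut and endocrine genes, which are lower limits.

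Other microRNAs of liver, pancreas and gut spanned a wide range, and 5 of the 11 listed had at least 10 counts in both libraries. Mir483, in an intron of the growth factor gene Igf2, had 3175 CPM in replicate 1 and 3281 CPM in replicate 2. Mir148a, abundant in liver, had 1706 and 1661 CPM, and Mir33, which lies in the sterol regulator gene Srebf2, had 94.8 and 90.2 CPM. These genes are also expressed outside the liver, and each had more reads than Mir122 in both libraries. Mir802, a hepatic microRNA, had 3.47 CPM in replicate 1 and 2.90 CPM in replicate 2, below Mir122 in both libraries. The Mir7 genes were listed together for islet and pituitary. Mir7-1 had 48.8 and 58.6 CPM, while Mir7-2 (1.74 and 3.62 CPM) and Mir7b (1.74 and 3.14 CPM) were low. How far the reads of each came from endocrine cells was not measured. Mir7-1 and Mir7-2 share stretches of 22 bases with each other, so their counts are lower limits. Mir147 had 1.74 and 4.34 CPM in replicates 1 and 2. The acinar genes of the pancreas were near the limit: Mir217 had 9 counts in replicate 1 and 10 in replicate 2, Mir216b had 3 and 2, and Mir216a had 1 and 2.

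In the lists of brain, heart and eye, 1 gene each carried nearly all reads. The brain list summed to 93.1 and 91.7 CPM in replicates 1 and 2, nearly all from Mir137 (92.6 and 91.7 CPM), while 4 of its 6 genes in the tables had no count. Of those 4, the Mir124a genes share stretches of 22 bases with each other and Mir9-2 does so with Mir9-1 and Mir9-3. Their counts of 0 therefore do not show that they are absent, and the brain sum is a lower limit. The heart list summed to 139 CPM and 106 CPM, of which Mir208b, which lies in the slow myosin gene Myh7 that skeletal muscle also uses, had 137 and 104 CPM. The list of eye and pigment genes summed to 339 and 388 CPM and was led by Mir204 with 326 and 375 CPM. The pluripotency list summed to 47.1 and 38.6 CPM, led by Mir302a (16.5 and 12.5 CPM) and Mir302d (15.4 and 8.93 CPM). The gonad and germ-line list was lowest at 2.82 CPM in replicate 1 and 1.21 CPM in replicate 2, led by Mir741 (2.39 and 0.241 CPM), with 6 of 11 genes at 0 counts in both. In counted reads, the sum of 538 and 703 CPM of the liver, gut and endocrine genes rests on Mir375. Without it the other 5 summed to 151 and 178 CPM, below the eye and pigment list. Both sums leave out miR-194-5p reads that match Mir194-1 and Mir194-2, so they are lower limits. Whether the 5 genes would stay below the eye and pigment list with those reads was not measured. The lists hold different numbers of genes, and no test was made between them.

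**Figure D3:**
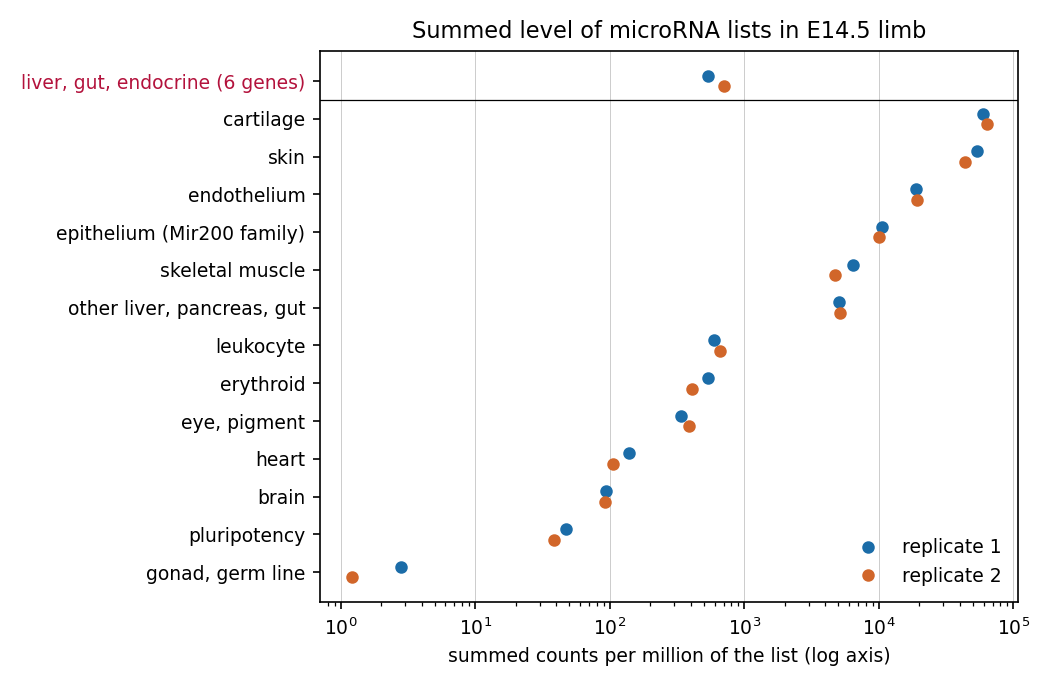
Summed CPM of each list of microRNA genes on a log axis, replicate 1 above replicate 2 in each row, with the 6 liver, gut and endocrine genes on top and the other lists ordered by mean. The 6 genes lie at 538 and 703 CPM, beside the leukocyte (598 and 655 CPM) and erythroid (539 and 409 CPM) lists and far below cartilage and skin.

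The spread between the libraries was then described by the log2 ratio of replicate 1 over replicate 2, tested over the 407 genes whose counts in both libraries came to 10 or more. The exact binomial test with Benjamini-Hochberg adjustment over all of them sets the reads of these libraries against counting noise and says nothing of conditions. All 4 genes of the group that reached 10 counts entered it, and Mir215 (8 counts in total) and Mir194-1 (3) did not. At an adjusted p under 0.05, 3 of the 4 were lower in replicate 1, against 19.9% of all tested genes, and 0 of 4 were higher, against 15.7%. With TMM scaling 11.1% of all tested genes were lower and 21.1% higher, and with DESeq2 size factors 10.3% and 23.6%, while the same 3 genes of the group were lower under both. With a 2-fold change required in addition, 1 of 4 passed, against 0.983% of all tested genes in either direction. The median log2 ratio of the 4 was -0.39, and that of all tested genes was -0.04. With 4 genes, of which Mir192 and Mir194-2 lie at 1 locus, these counts describe the genes and no more.

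In Mir375 the log2 ratio was -0.44 (interval -0.53 to -0.35; exact binomial adjusted p = 6.94e-21). The 48 genes of like depth, 3000 to 10000 counts in total, had a median absolute log2 ratio of 0.11, a 90th percentile of 0.28 and a maximum of 0.47, so Mir375 lay near the top of their range. Mir192 had a log2 ratio of -0.35 (interval -0.56 to -0.14; exact binomial adjusted p = 0.00417). Mir194-2, its neighbour, had a log2 ratio of 0.05 (interval -0.18 to 0.29; exact binomial adjusted p = 0.847). The 48 genes with 300 to 1000 counts, among them this pair, had a median absolute log2 ratio of 0.13 and a 90th percentile of 0.40.

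Mir122 had the ratio farthest from 0 among the 4, a log2 ratio of -1.09 (interval -1.80 to -0.43; exact binomial adjusted p = 0.00267), and was the 1 gene of the group past 2-fold. It rests on 29 against 56 reads. Among the 51 genes with 30 to 100 counts, the median absolute log2 ratio was 0.24, the 90th percentile 0.82 and the maximum 1.80, and 5 of them, Mir122 included, reached a 2-fold change. The call of Mir122 and those of Mir375 and Mir192 were lost with edgeR's exact test at the coefficient of variation of 8.80% that edgeR estimated from these libraries. The adjusted p was then 0.487 for Mir122, 0.705 for Mir375 and 0.991 for Mir192, and 0 of all 407 genes passed (24 had an unadjusted p under 0.05). That coefficient was a common value for all tested genes, estimated from the very difference under test. The near absence of calls at it is therefore largely built in. These calls were also lost at fixed coefficients of 0.1 and 0.2, chosen after the data were seen. They hold against counting noise alone, and the true variation between limb samples was not measured.

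**Figure D4:**
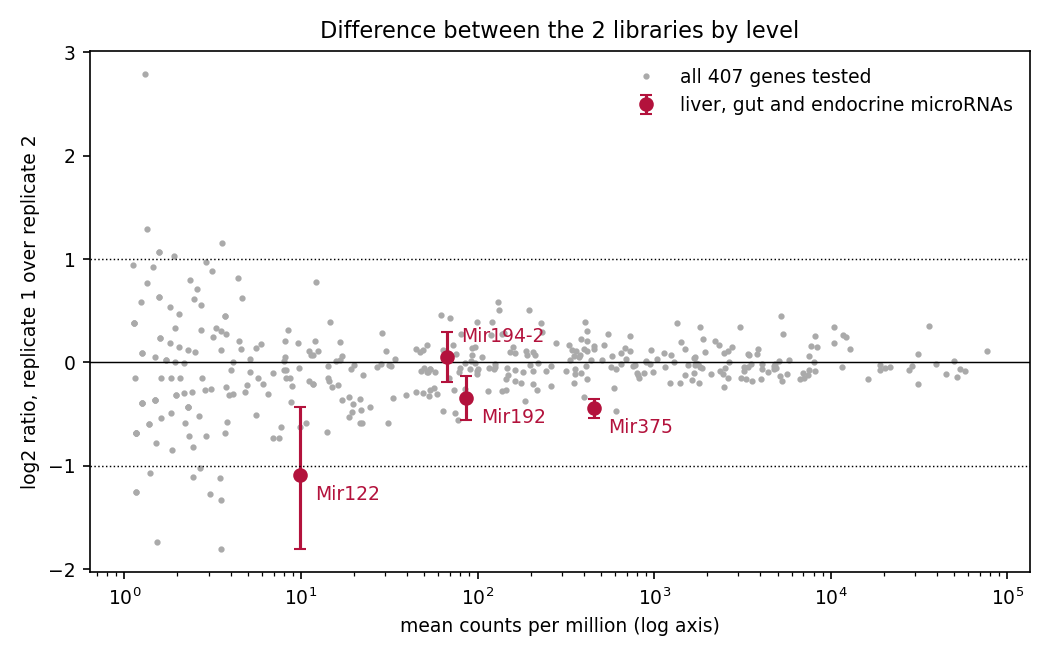
Log2 ratio of replicate 1 over replicate 2 against mean CPM (log axis) for the 407 genes tested, grey, with Mir375, Mir192, Mir194-2 and Mir122 in red with 95% binomial intervals. Dotted lines mark a 2-fold change; Mir122 lies at -1.09, Mir375 and Mir192 at -0.44 and -0.35, and Mir194-2 at 0.05 among the grey points.

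Markers of tissues in the limb differed between the same libraries in both directions. By the same exact binomial test, both red cell genes were higher in replicate 1, Mir451a with a log2 ratio of 0.39 (adjusted p = 9.06e-15) and Mir144 with 0.43 (adjusted p = 0.00125). All 3 skeletal muscle genes passed the test as higher in replicate 1, with a list sum of 6424 CPM there against 4681 CPM in replicate 2. Both skin genes did so as well, with 53900 against 43852 CPM. The Mir200 family of epithelia, which includes Mir141, summed to 10505 CPM in replicate 1 and 10080 CPM in replicate 2, with 3 of 5 genes passing as higher in replicate 1 (5 of 5 with TMM or DESeq2 scaling) and 0 as lower. In the direction of Mir375, Mir192 and Mir122, the cartilage gene Mir140 had a log2 ratio of -0.09 (-0.02 with TMM and -0.01 with DESeq2 scaling), and the white cell gene Mir155 had -0.23, each past the threshold under all 3 scalings. The other white cell genes did not pass the exact binomial test, Mir223 with -0.06 (adjusted p = 0.420; 0.01 with DESeq2 scaling) and Mir150 with 0.11 (adjusted p = 0.901). Mir455, also of cartilage, passed with -0.06, a call that was lost with TMM (-0.00) and DESeq2 scaling (0.01). Mir126a of endothelium passed with -0.02, and passed in the other direction with 0.04 under TMM and 0.05 under DESeq2 scaling. Of the other liver, pancreas and gut genes, 6 of 9 tested had a negative ratio, against 57.0% of all tested genes, and 5 of 9 had one with TMM scaling (45.2% of all tested genes) or DESeq2 scaling (42.8%). Mir483 alone passed (log2 ratio -0.05, adjusted p = 0.0195), a call that was lost with its direction under TMM (0.01) and DESeq2 scaling (0.02), while Mir148a then passed as higher (0.10 and 0.11). The part of tissue composition in the ratios of Mir375, Mir192 and Mir122 was not tested.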

How the data were processed

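MicroRNA sequencing of 2 limb samples of 1 group was used. The authors deposited raw read counts per gene, whole numbers without normalization, aligned to mm10 and counted on GENCODE M4, per the deposited read-me texts. The aligner and counter are not given in the sources used here. No header names the 3 count columns, which were taken from their values as either, own and opposite strand. The 4 tally rows of reads not given to a gene stayed out of library sizes: 31.8% and 32.6% of reads had several alignments, 12.8% and 13.7% were unmapped, and 4.19% and 4.31% lay on the own strand of no gene. The own-strand sums were 4608816 counts in replicate 1 and 4144385 in replicate 2.

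Names and positions came from GENCODE M21 on the same build, by Ensembl identifier (1894 of 1973 matched). CPM, Poisson intervals, binomial intervals and the two-sided exact binomial test were computed with Python 3.11.15, numpy 2.4.6, pandas 2.3.3 and scipy 1.17.1, with a prior count of 0.5 in log2 ratios. The intervals of genes and ratios are at 95% and cover counting error only, as they treat each read as independent. No molecular identifiers were recorded, so reads copied from 1 molecule could not be told apart. A quasi-likelihood test was not possible with 1 library on each side. TMM factors and the exact test of edgeR 4.0.16 and size factors of DESeq2 1.42.0 (R 4.3.3) served as alternatives, and figures were drawn with matplotlib 3.10.9. Fisher's exact test was used for 1 ratio. The binomial test was checked on counts simulated with known changes and counting noise alone. That check does not cover variation between libraries beyond counting.

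The genes and the 13 lists (62 of 63 listed genes were in the tables) were chosen with earlier results of these data known. Named were the 6 genes, listed liver, pancreas and gut genes with at least 10 counts in total, the highest 1 or 2 genes of other lists and the genes next in level. Mir216a, Mir216b, Mir144, Mir150, Mir155 and Mir223 were named in addition, after their values were seen.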

Additional observations from a re-analysis of the deposited data

How the results depend on the processing

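The 35 log2 ratios of the 4 tested genes under the alternatives kept their direction: Mir375 lay between -0.45 and -0.37, Mir192 between -0.35 and -0.27, Mir194-2 between 0.05 and 0.13 and Mir122 between -1.10 and -1.02. Of these, 26 stayed on the same side of an adjusted p of 0.05: those under TMM or DESeq2 scaling, either-strand counts, a prior count of 2 and both other count filters, and Mir194-2 throughout. The other 9 are Mir375, Mir192 and Mir122 under edgeR's exact test, chosen after seeing the data: at a coefficient of variation of 0.1 or 0.2 or the 8.80% estimated from the same difference, ratios were -0.44, -0.35 and -1.10 with adjusted p between 0.487 and 1, and 0 genes passed with or without a fold threshold. At least 100 counts in total left Mir122 untested and 0 genes past 2-fold, and without a fold threshold 145 genes and 3 of the 4 passed.

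With the reads of several alignments in the total, the summed level was 378 CPM, Mir375 was 277 CPM, Mir192 52.6 CPM and Mir194-2 40.8 CPM. Either-strand counts gave 64.8 CPM for Mir194-2 and 0.678 CPM for Mir194-1. Leaving out a replicate gave the range of the single libraries: 538 to 703 CPM for the sum, 387 to 526 for Mir375, 76.2 to 96.8 for Mir192, 65.6 to 68.1 for Mir194-2, 6.29 to 13.5 for Mir122, 0.651 to 1.21 for Mir215 and 0.217 to 0.483 for Mir194-1. No ratio can be had without a replicate. At least 4 counts in each library detected the same number of genes, 4. Mir215 and Mir194-1, at 1 to 5 counts, allow statements about the detection limit only. For Mir194-1 these cover reads that align to 1 gene, since miR-194-5p reads that match both of its genes were left out.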
